A study of Mus musculus with 53 samples.

Results

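The genes described here concern the calcium store of striated muscle. They are the pumps Atp2a1 and Atp2a2, their mainly non-muscle relative Atp2a3, the pump inhibitor Sln, and the luminal calcium-binding proteins Casq1, Casq2 and Srl. All 7 were taken by symbol, and each was found once among the 55573 genes of the bulk RNA tables and once among the 57010 genes of the single-cell matrices. The tissue was mouse cerebellum in which Insm1, or Tead1 and Tead2 together, had been deleted with Atoh1Cre, a recombinase driven by Atoh1 regulatory sequence in the granule cell lineage. Bulk RNA came from individual pups at postnatal day 2 (P2), with 4 Insm1fl/fl controls, 4 Atoh1Cre;Insm1fl/fl mutants, 3 Tead1fl/fl;Tead2fl/fl controls and 4 Atoh1Cre;Tead1fl/fl;Tead2fl/fl mutants. Single-cell RNA came from 10 libraries at postnatal day 7 (P7), each from 1 cerebellum, with 2 controls and 3 mutants for each allele. The labels call the P7 mutants conditional knockouts of the same genes and give no further genotype for their controls. The single-cell libraries numbered 1 held all lobules, and those numbered 2 and 3 lacked lobules IX and X.

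Calcium is returned from the cytosol to the endoplasmic reticulum by SERCA pumps, the products of the Atp2a genes. In muscle the reticulum is specialised as the sarcoplasmic reticulum, from which a fast release of calcium starts contraction. Atp2a1 encodes the pump of fast skeletal fibres, Atp2a2 the pump of heart, slow fibres and, as a ubiquitous splice form, most other cells including Purkinje neurons, and Atp2a3 a pump of blood, endothelial and other non-muscle cells. Sarcolipin, encoded by Sln, is a small membrane protein that uncouples the pump. Calsequestrins bind calcium inside the store, Casq1 mainly in fast skeletal and Casq2 in cardiac and slow or developing muscle, and sarcalumenin, encoded by Srl, is another luminal calcium-binding glycoprotein that stabilises the pump.

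The sequences just upstream of the start sites are shown so that the binding letters of muscle regulators can be looked for there. Whether such regulators act on the members was not tested. RefSeq promoter entries on build GRCm38.p6 were matched for 4 of the 7 members, Atp2a1, Casq1, Casq2 and Atp2a3. Each run below is read 5′ to 3′ on the strand of the gene and holds no transcribed base. Capitals mark the letters CAGCTG, the E-box form with a GC centre bound by myogenic bHLH factors, in Casq1 and Atp2a1, and a match to the MEF2 site in Casq2. The regions were chr7:126463104-126463323 on the minus strand for Atp2a1 (220 bases, ending 31 bases before the start site), chr1:172219896-172220145 on the minus strand for Casq1, chr3:102086165-102086414 on the plus strand for Casq2 and chr11:72960919-72961168 on the plus strand for Atp2a3, each of the last 3 being 250 bases.
Atp2a1: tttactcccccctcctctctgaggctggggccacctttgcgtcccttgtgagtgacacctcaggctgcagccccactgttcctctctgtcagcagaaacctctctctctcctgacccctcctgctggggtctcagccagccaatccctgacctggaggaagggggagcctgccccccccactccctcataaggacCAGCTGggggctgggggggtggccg
Casq1: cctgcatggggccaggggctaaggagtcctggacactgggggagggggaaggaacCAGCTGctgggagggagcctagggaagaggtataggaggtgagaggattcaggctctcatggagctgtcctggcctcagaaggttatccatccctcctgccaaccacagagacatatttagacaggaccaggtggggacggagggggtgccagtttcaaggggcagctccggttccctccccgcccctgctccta
Casq2: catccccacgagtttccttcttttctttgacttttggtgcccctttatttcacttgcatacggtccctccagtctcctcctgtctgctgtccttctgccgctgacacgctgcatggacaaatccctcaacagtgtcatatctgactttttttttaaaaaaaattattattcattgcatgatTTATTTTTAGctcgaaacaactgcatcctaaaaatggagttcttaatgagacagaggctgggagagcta
Atp2a3: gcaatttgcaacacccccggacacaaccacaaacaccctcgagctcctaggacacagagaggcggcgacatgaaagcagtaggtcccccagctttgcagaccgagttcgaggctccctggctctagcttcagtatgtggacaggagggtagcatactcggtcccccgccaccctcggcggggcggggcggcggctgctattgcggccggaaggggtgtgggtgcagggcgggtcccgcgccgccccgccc

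The CAGCTG of Atp2a1 lay at -55 to -50 from the start site, and that of Casq1 at -195 to -190. Casq1 also held CAGGTG at -67 to -62. The MEF2 match of Casq2, TTATTTTTAG, lay at -69 to -60, beside the E-boxes CACTTG at -200 to -195 and CAACTG at -52 to -47. Atp2a3 held none of the motifs searched. On both strands of 32851 promoters of 250 bases, any E-box (CANNTG, which includes CAGCTG) was found in 66.2%, CAGCTG in 13% and the MEF2 site in 2.92%. The TEAD element MCAT, searched as CATTCC and found in 12.6% of promoters, and the INSM1 core, searched as CAGGGGGC and found in 2.52%, were in none of the 4 windows. These matches describe letters only, and their absence from a window says nothing of a factor.

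The libraries were read against their labels before the members. P2 libraries held 28066643 to 64518751 expected counts. P7 libraries kept 4588 to 10282 cells at a median of 6657 to 9803 UMIs (unique molecules counted) per cell. Insm1 stood at 30.8 to 71.6 CPM (the standard unit of counts scaled to one fixed library total) in its P2 controls and 8.39 to 16.1 CPM in its mutants. Counts over the whole gene do not show which exons were removed, and neither Tead gene was called at P2 with all libraries. Tead2 stood at 21.5 to 25.7 CPM in P2 controls, at 17.6 to 20.1 CPM in Tead1/2 mutants 1 to 3 and at 26.2 CPM in the library labelled mutant 4, without which it was called lower (-0.35, adjusted p = 0.0417). Tead1 overlapped at P2 (33.4 to 54.2 CPM in controls, 38.1 to 50.7 CPM in mutants). At P7, Tead2 was lower in Tead1/2 mutants by 1.95 on the log2 scale (adjusted p = 9.02e-08), whereas Tead1 was higher, at 1132 to 1330 CPM against 624 and 633 CPM in controls (0.93, adjusted p = 3.54e-06). Myog, a regulator of muscle differentiation, was at 28.7 to 38.0 CPM in 3 Tead1/2 mutant libraries at P2 but at 0.419 CPM in the library labelled Tead1/2 mutant 4, near the 0.2 to 0.308 CPM of its controls. Results for that allele at P2 are therefore given with and without that library. Among the Insm1 libraries Myog was at 0 to 3.92 CPM in controls (median 0.286) and 18.8 to 34.7 CPM in mutants. Myod1, another muscle regulator, was at 0.864 to 3.06 CPM in Insm1 controls, above the 0.0752 to 0.119 CPM of Tead1/2 controls, and at 5.17 to 6.69 CPM in Insm1 mutants. The P2 libraries of the 2 alleles carry different batch labels, with no word on which step the batch refers to, so allele and batch cannot be told apart there, and the P7 libraries were deposited as 1 sample with 1 batch label. The cells kept at P7 shared 0 barcodes between libraries. At P2, Xist was above the Y-linked Ddx3y, as in females, in all Insm1 controls but only in Insm1 mutants 1 and 2. Among Tead1/2 libraries this held for control 2 and the library labelled mutant 4 only. With sex as a covariate no member's call at P2 changed.

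At P2 Sln was the 1 member of the 6 tested that rose in Insm1 mutants, against a background of 0.689% of 19582 genes called in either direction and 0.48% called higher (edgeR quasi-likelihood test, adjusted p under 0.05). Sln stood at 0.0964, 0.161, 0.0910 and 0.0298 CPM in the 4 controls and at 1.14, 0.551, 0.433 and 0.725 CPM in the 4 mutants. Every mutant was above every control, although the values rest on 1 to 6 counts per control library and 13 to 47 per mutant library. The difference was 2.88 on the log2 scale (SE 0.45, adjusted p = 0.018), a 7.37-fold rise. The call was lost without any 1 of the control libraries 1, 3 or 4 (adjusted p = 0.0775, 0.0618 and 0.0574) or mutant library 4 (adjusted p = 0.0613), while the difference stayed between 2.54 and 3.24.

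Casq2 was also higher in every Insm1 mutant, but missed the threshold. Its controls stood at 1.09, 1.61, 1.58 and 0.894 CPM and its mutants at 3.78, 2.47, 2.30 and 2.55 CPM, so the groups did not overlap. The share of all genes whose groups did not overlap was not counted for any comparison, so a lack of overlap is only a description. The log2 difference was 1.12 (SE 0.24, adjusted p = 0.0784), and DESeq2 called it (1.11, adjusted p = 0.00187). Atp2a1 was under the expression filter, at 0.145, 0.0806, 0.0910 and 0.0596 CPM in controls and 0.631, 0.580, 0.233 and 0.347 CPM in mutants, from 2 to 6 counts against 7 to 26. These groups did not overlap either, and DESeq2, which applies its own filter and called 1.35% of genes, gave 2.25 (SE 0.60, adjusted p = 0.0193). DESeq2 thus called 3 members higher, against 0.789% of genes called higher and 0.557% lower.

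The other 4 members did not pass the test in Insm1 mutants at P2. Atp2a2, the housekeeping pump, was at 341 to 397 CPM in Insm1 controls and 307 to 392 CPM in mutants, a log2 difference of -0.07 (adjusted p = 0.846). Srl was at 16.8 to 18.9 CPM in controls and 18.3 to 20.7 CPM in mutants (0.16, adjusted p = 0.564). Atp2a3 had 2.55 to 3.83 CPM in controls and 1.90 to 2.65 CPM in mutants (-0.52, adjusted p = 0.341), and Casq1 0.576 to 0.806 CPM against 0.284 to 0.700 CPM (-0.35, adjusted p = 0.737). In each of these 4 genes at least 1 mutant lay within the range of the controls.

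**Figure D1:**
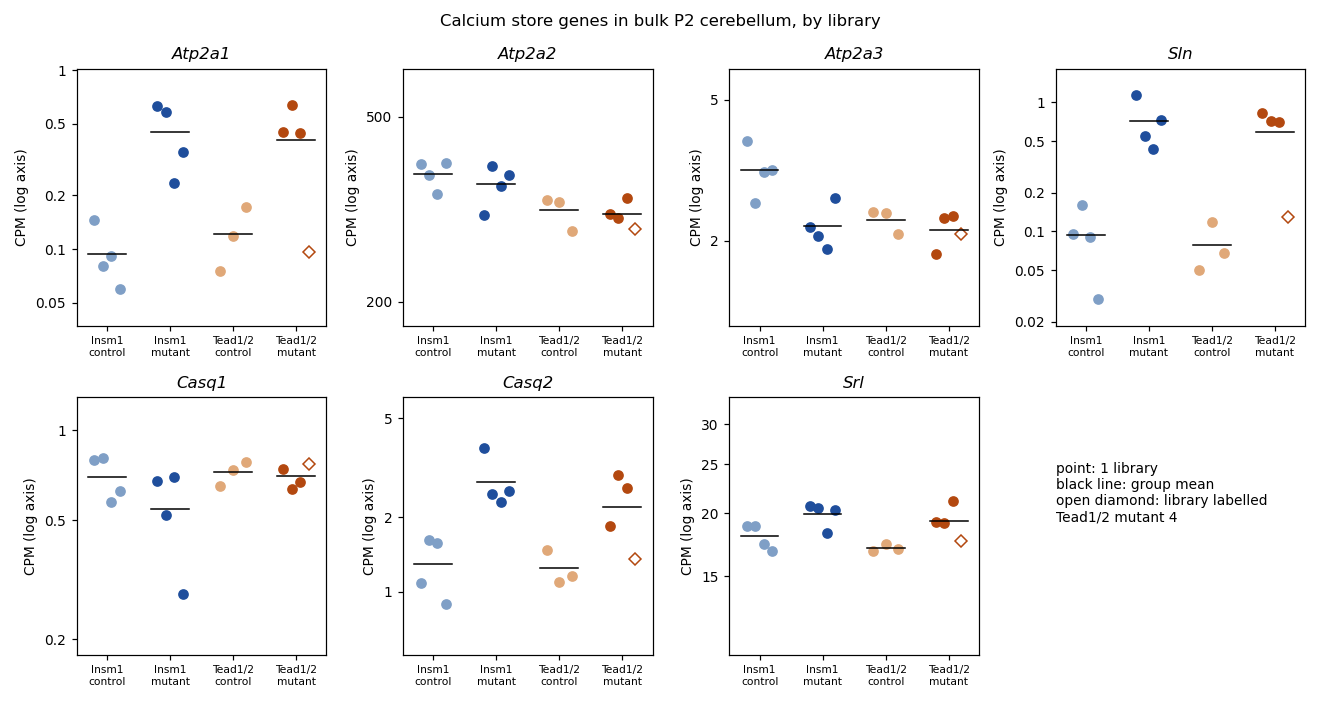
CPM of the 7 members in each P2 bulk library, on a log axis, by group; each point is 1 library, each line a group mean, and the open diamond the library labelled Tead1/2 mutant 4. Sln, Atp2a1 and Casq2 stand higher in mutants of both alleles except for that library, which lies near or among its controls, whereas Atp2a2, Atp2a3, Casq1 and Srl overlap or nearly overlap between groups.

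In Tead1/2 mutants at P2, Sln, Atp2a1 and Casq2 lay above every control in at least 3 of the 4 libraries. Sln stood at 0.0501, 0.119 and 0.0683 CPM in the controls and at 0.830, 0.719, 0.699 and 0.129 CPM in the mutants. Atp2a1 stood at 0.0752, 0.119 and 0.171 CPM in the controls and at 0.449, 0.637, 0.448 and 0.0966 CPM in the mutants. Casq2 stood at 1.48, 1.09 and 1.16 CPM in the controls and at 1.84, 2.96, 2.63 and 1.35 CPM in the mutants. For all 3 genes the lowest mutant value came from the library labelled mutant 4, which for Atp2a1 and Casq2 lay inside the range of the controls. With all 7 libraries edgeR called none of the 7 members and 0% of 20247 genes, while 4052 genes, Sln, Atp2a1 and Casq2 among them, had an unadjusted p under 0.05 and DESeq2 called 1026 genes (6.28%, with 4.38% higher). DESeq2 gave Sln, Atp2a1 and Casq1 no adjusted p, so it could not call them (2.88, SE 0.74, for Sln and 1.77, SE 0.70, for Atp2a1), and it did not call the other 4 members. The log2 differences were 2.86 for Sln (SE 0.63, adjusted p = 0.0935), 1.81 for Atp2a1 (SE 0.57, adjusted p = 0.141) and 0.80 for Casq2 (SE 0.26, adjusted p = 0.148).

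Without the library labelled mutant 4, which was singled out for its Myog level, 3.19% of 20234 genes were called, 1.98% higher, and 3 of the 7 members rose. Sln rose by 3.14 on the log2 scale (SE 0.38, adjusted p = 0.00209), Atp2a1 by 2.08 (SE 0.39, adjusted p = 0.0241) and Casq2 by 0.96 (SE 0.21, adjusted p = 0.0446). Like Myog, these 3 genes were lowest among the mutants in the library left out, so leaving it out favours their calls. Atp2a2 was at 284 to 331 CPM in controls and 287 to 335 CPM in mutants, Atp2a3 at 2.08 to 2.41 and 1.84 to 2.35 CPM, and Casq1 at 0.651 to 0.786 and 0.637 to 0.773 CPM, none of them called with or without that library. Srl was at 16.8 to 17.4 CPM in controls and at 17.6 to 21.2 CPM in mutants, which did not overlap, for a log2 difference of 0.15 (adjusted p = 0.277). A test of whether the 2 alleles' effects differed at P2 called none of the 7 members and 0% of 20837 genes by edgeR (1435 genes at an unadjusted p under 0.05, 14 genes by DESeq2). In these whole-tissue samples, a change in the number of cells of a type and a change in RNA per cell cannot be told apart.

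Muscle markers moved with these members at P2. The 29 skeletal muscle markers summed to 44.8 to 73.1 CPM in Insm1 controls and 209 to 333 CPM in mutants. Of the 26 tested, 21 rose, beside 0.48% of all genes called higher. In Tead1/2 libraries the sum was 50.9 to 57.5 CPM in controls, 216 to 293 CPM in mutants 1 to 3 and 52.1 CPM in the library labelled mutant 4, which had 26 of the 29 markers with a count. With all Tead1/2 libraries edgeR called 0% of genes, so no marker was called for that allele. At least 23 of the markers had a count in each control library. The part of muscle cells in the P2 levels of Sln, Atp2a1 and Casq2 was not tested.

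At P7 all 7 members rose in Insm1 mutants when all cells of a library were summed, where 33.4% of 24198 genes were called and 18.2% were called higher. Atp2a1, the fast-fibre pump, stood at 0.661 and 0.515 CPM in the controls and at 32.2, 43.0 and 34.8 CPM in the mutants. Its log2 difference of 5.97 (SE 0.26, adjusted p = 1.56e-07) was a 62.5-fold rise. Sln stood at 0.155 and 0.157 CPM in the controls and at 7.58, 10.1 and 6.95 CPM in the mutants, and rose by 5.72 (SE 0.28, adjusted p = 3.03e-07). For both genes every mutant lay far above both controls.

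The luminal buffers followed. Casq2 stood at 2.45 and 2.62 CPM in controls and at 62.6, 80.3 and 69.2 CPM in mutants, a rise of 4.82 on the log2 scale (SE 0.23, adjusted p = 3.12e-07). Casq1, its fast-fibre paralog, stood at 0.143 and 0.176 CPM in controls and only 1.38, 1.59 and 1.33 CPM in mutants, a rise of 3.18 (SE 0.17, adjusted p = 6.12e-07). Srl stood at 12.4 and 12.1 CPM in controls and at 76.2, 86.6 and 87.6 CPM in mutants, a rise of 2.78 (SE 0.16, adjusted p = 7.33e-07). None of the 3 buffers overlapped between controls and mutants, with no share over all genes counted. The spread among mutants was small beside the difference.

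The other pumps changed least. Atp2a2 stood at 212 and 208 CPM in Insm1 controls and at 268, 293 and 298 CPM in mutants, a rise of 0.46 (SE 0.08, adjusted p = 0.00152). Atp2a3 stood at 0.933 and 1.37 CPM in controls and at 1.81, 2.72 and 2.76 CPM in mutants, a rise of 1.09 (SE 0.25, adjusted p = 0.00648) that was not called without Insm1 control 1 (0.83, adjusted p = 0.0721). Purkinje-like cells, among the classes with the highest mean Atp2a3 levels, were 0.311% and 1.86% of cells in the 2 controls and 0.75%, 1.86% and 2.51% in the 3 mutants. Summed Purkinje markers were at 3179 to 3657 CPM in Insm1 controls and 3613 to 4179 CPM in mutants. In Tead1/2 libraries they were at 3090 to 3144 CPM in controls and 2378 to 2819 CPM in mutants. The part of these cells in the rise of Atp2a3 was not tested.

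In Tead1/2 mutants at P7, 6 of the 7 members rose, where 48.5% of genes were called and 25.9% were called higher. Atp2a1 stood at 0.646 and 0.568 CPM in the controls and at 149, 126 and 93.3 CPM in the mutants, a rise of 7.64 on the log2 scale (SE 0.28, adjusted p = 3.06e-08). Sln stood at 0.0828 and 0.148 CPM in the controls and at 21.6, 22.6 and 16.1 CPM in the mutants, a rise of 7.48 (SE 0.31, adjusted p = 6.27e-08). In both genes mutant 3 was the lowest of the mutants and remained far above the controls.

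Casq2 stood at 1.86 and 1.49 CPM in Tead1/2 controls and at 209, 197 and 130 CPM in mutants, a rise of 6.71 (SE 0.26, adjusted p = 4.55e-08). Casq1 stood at 0.174 and 0.159 CPM in controls and at 6.82, 6.06 and 5.83 CPM in mutants, a rise of 5.20 (SE 0.18, adjusted p = 2.61e-08). Srl stood at 12.9 and 12.5 CPM in controls and at 228, 210 and 154 CPM in mutants, a rise of 3.95 (SE 0.17, adjusted p = 6.95e-08). The 3 buffers thus did not overlap between groups for this allele either, again with no share over all genes counted.

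Atp2a2 stood at 211 and 213 CPM in Tead1/2 controls and at 398, 364 and 331 CPM in mutants, a rise of 0.77 (SE 0.08, adjusted p = 2.89e-05). Atp2a3 stood at 1.23 and 0.841 CPM in controls and at 1.67, 1.64 and 1.41 CPM in mutants, a log2 difference of 0.58 (SE 0.25) that was not called (adjusted p = 0.0816), although the groups did not overlap. With only the libraries without lobules IX and X, where control 2 was the only Tead1/2 control, the difference was 0.84. Within the counts of the Atp2a1 and Atp2a2 pumps, Atp2a1 made up 0.247% to 0.311% in the 4 control libraries of both alleles. That share was 10.7%, 12.8% and 10.5% in the Insm1 mutants and 27.2%, 25.7% and 22% in the Tead1/2 mutants. Counts here are per gene and not per length, so the shares compare libraries and not the abundance of the pumps.

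**Figure D2:**
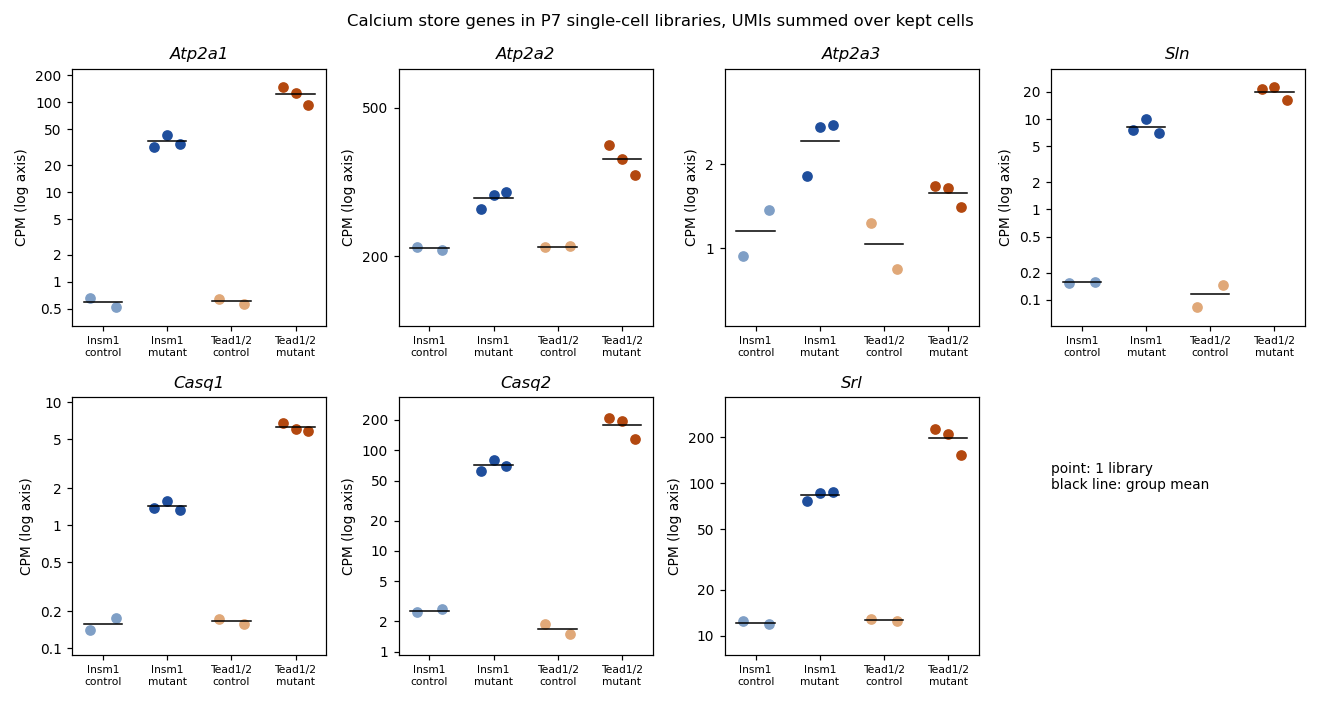
CPM of the 7 members summed over all cells of each P7 library, on a log axis, by group; each point is 1 library and each line a group mean. Mutants of both alleles stand above their controls for every member, by the widest margin for Atp2a1, Sln and Casq2 and by the narrowest for Atp2a2 and Atp2a3.

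The rise was larger after Tead1/2 deletion than after Insm1 deletion for 4 of the 7 members, where the same test called 3.42% of genes and 1.96% as larger in Tead1/2 mutants. The excess on the log2 scale was 2.02 for Casq1 (SE 0.26, adjusted p = 0.00665), 1.90 for Casq2 (SE 0.29, adjusted p = 0.0127), 1.17 for Srl (SE 0.20, adjusted p = 0.017) and 1.66 for Atp2a1 (SE 0.35, adjusted p = 0.0343). Sln had an excess of 1.76 (adjusted p = 0.0769), Atp2a2 of 0.31 (adjusted p = 0.165) and Atp2a3 of -0.51 (adjusted p = 0.449), none of them called. Sln was called in 5 of 18 alternatives: with DESeq2 (1.74, adjusted p = 0.0031), with no low-count filter (1.78, 0.0321), with doublets kept at either UMI minimum (1.68, 0.0474, and 1.73, 0.0433) and without Tead1/2 mutant 3 (1.90, 0.0332). The 6 libraries without lobules IX and X hold only control 2 of each allele, so no call is read from them. The excess there was 2.15 for Casq1, 1.92 for Casq2, 0.99 for Srl and 1.33 for Atp2a1, in the same direction. With all deposited barcodes, Atp2a1 had an excess of 0.65 (adjusted p = 0.282) and Casq2 of 1.06 (adjusted p = 0.0590), neither called. Casq1 kept its call through every removal of 1 library, whereas Atp2a1 was lost without any 1 of Insm1 control 1 (adjusted p = 0.0979), Insm1 control 2 (0.0856), Insm1 mutant 1 (0.0654), Insm1 mutant 3 (0.0657), Tead1/2 control 1 (0.0930), Tead1/2 control 2 (0.136) or Tead1/2 mutant 2 (0.0697). Srl was lost without Insm1 control 2 (adjusted p = 0.0526), Tead1/2 control 1 (0.0550) or Tead1/2 control 2 (0.0778), and Casq2 without Insm1 control 2 (0.0501) or Tead1/2 control 2 (0.0654).

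**Figure D3:**
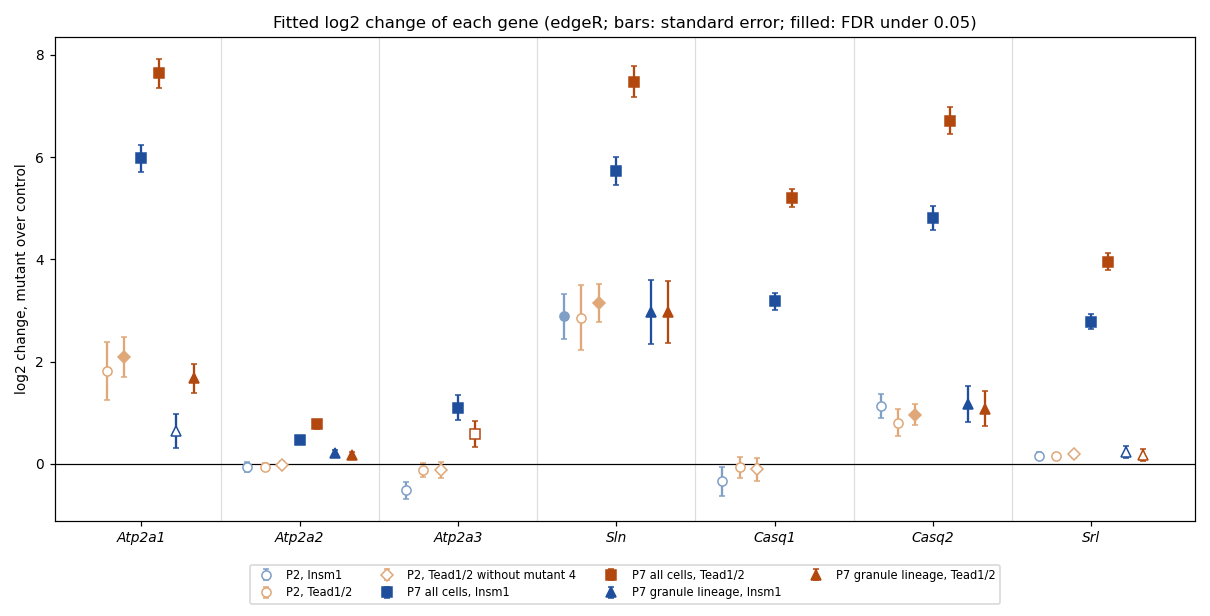
Log2 differences between mutants and controls for each member in the P2 libraries, the P7 sums over all cells and the P7 granule lineage, with bars of 1 standard error, for both alleles; filled symbols are called, open ones are not, and untested members have no point. At P7 over all cells the points run from near 8 for Atp2a1 in Tead1/2 mutants to under 1 for Atp2a2, and the Tead1/2 points lie above the Insm1 points for every member but Atp2a3.

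At P7 all 29 skeletal muscle markers rose for both alleles, where 18.2% of all genes were called higher in Insm1 and 25.9% in Tead1/2 mutants. Their sum went from 83.7 to 104 CPM up to 6495 to 8035 CPM in Insm1 libraries. In Tead1/2 libraries it went from 73.4 to 86.6 CPM up to 14606 to 24387 CPM. The difference between alleles was called, as larger in Tead1/2 mutants, for 19 of the 29, beside 1.96% of all genes. The medians over those markers were 6.0 and 7.44 on the log2 scale, so the log2 rises of Atp2a1 and Sln were near the marker median in both alleles, and those of the other 5 members were below it. Mural markers, of the class with high Atp2a3, also differed, at 58.5 to 89.8 CPM in Insm1 controls and 115 to 139 CPM in mutants, with 3 of 11 called higher, beside 18.2% of all genes. In Tead1/2 libraries they were at 54.3 to 80.8 CPM in controls and 174 to 191 CPM in mutants, with 5 of 11 called higher, beside 25.9% of all genes. The shares of mural-like cells, by contrast, overlapped between controls and mutants for both alleles. They were 0.117% and 0.352% of cells in Insm1 controls and 0.303%, 0.191% and 0.131% in mutants. In Tead1/2 libraries the shares were 0.6246% and 0.244% in controls and 0.222%, 0.418% and 0.397% in mutants. They rest on 6 to 58 such cells per library. Microglia markers, of another class with Atp2a3, were at 127 to 137 CPM in Insm1 controls and 229 to 274 CPM in mutants (6 of 10 called higher), and at 257 to 442 CPM and 391 to 560 CPM in Tead1/2 libraries (3 of 10). The part of both classes in the levels of Atp2a3 was not tested.

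Summed markers of other cell types also differed at P7, where 18.2% of all genes were called higher and 15.2% lower in Insm1 mutants and 25.9% and 22.6% in Tead1/2 mutants. Their part in the members' changes was not tested. The 9 cardiac muscle markers went from 8.18 to 8.75 CPM up to 297 to 332 CPM in Insm1 libraries and from 7.85 to 7.93 CPM up to 653 to 955 CPM in Tead1/2 libraries, with 4 of 6 tested called higher for each allele. Smooth muscle markers went from 21.1 to 25.8 CPM up to 107 to 114 CPM and from 26.2 to 27.1 CPM up to 185 to 246 CPM, with 5 of 7 tested called higher for each. No class of cells was named for cardiac or smooth muscle, so these sums do not show such cells. Meningeal fibroblast markers went from 340 to 357 CPM up to 1081 to 1198 CPM (2 of 10 called higher, near the share of all genes) and from 327 to 375 CPM up to 2110 to 2400 CPM (7 of 10 called higher). Meningeal fibroblast-like cells were 2.57% and 3.47% of cells in Insm1 controls and 2.83%, 2.82% and 4.60% in mutants. Their shares were 2.75% and 1.79% in Tead1/2 controls and 2.69%, 5.25% and 6.98% in mutants. Granule progenitor markers went from 3346 to 3439 CPM down to 1879 to 2094 CPM and from 3409 to 3503 CPM down to 1546 to 1808 CPM, with 10 of 12 called lower for each allele.

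Cells were then clustered without the members among the genes used, to see where the members' molecules lay. Clusters were named from marker lists, and a skeletal muscle-like class held 13.5%, 15.9% and 18.5% of cells in the 3 Insm1 mutants and 20.4%, 27.9% and 20.3% in the 3 Tead1/2 mutants, against 7, 3, 2 and 3 cells in the 4 control libraries. Within that class Atp2a1 averaged 99.8 ± 16.4 CPM (SD, n = 3 libraries) in Insm1 mutants and 265 ± 51.6 CPM (SD, n = 3) in Tead1/2 mutants. Casq1 averaged 3.88 ± 0.29 and 15.4 ± 2.91 CPM, and Casq2 202 ± 24.4 and 399 ± 57.0 CPM. Srl averaged 217 ± 9.59 and 422 ± 64.7 CPM, Sln 23.7 ± 5.05 and 46.2 ± 4.35 CPM, and Atp2a2 351 ± 10.8 and 545 ± 57.3 CPM. For these 6 members the class means were higher in Tead1/2 mutants by more than the spread between libraries, although the largest cluster of the class differed, cluster 12 in Insm1 and cluster 32 in Tead1/2 mutants. Atp2a3 stayed low in the muscle-like class, at 0.571 CPM in Insm1 and 0.802 CPM in Tead1/2 mutants.

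The members did not run in parallel among the 5 clusters that carried muscle markers. Each cluster is given by its number and its leading genes, and each value is the mean over the 3 libraries of an allele. Clusters 4 (led by Slc2a5 and Rgr) and 12 (led by Alk and Slc2a5) had the least: Atp2a1 was 31.7 and 54.0 CPM in Insm1 mutants and 59.5 and 85.9 CPM in Tead1/2 mutants. Cluster 33, led by Rgr, Mettl21e and Acta2 and left unnamed because Acta2 is a mural marker, although it carried 26 of the 29 skeletal muscle markers, had the highest Atp2a1 level, at 470 CPM in Insm1 mutants and 477 CPM in Tead1/2 mutants. Cluster 32, led by the developmental myosin Myh8 and by nebulin (Neb), came next for Atp2a1, at 180 and 361 CPM.

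Casq1 and Casq2, paralogs with the same job, separated in cluster 33. Casq2 stood there at 443 ± 14.8 CPM in Insm1 and 469 ± 35.5 CPM in Tead1/2 mutants (SD, n = 3 libraries), whereas Casq1 had 0 UMIs in the 281 cells of Insm1 mutants, which allows up to 1.32 CPM, and 6 UMIs (0.784 CPM) in the 891 cells of Tead1/2 mutants. In cluster 32, Casq1 reached 8.07 ± 2.73 CPM in Insm1 and 23 ± 5.03 CPM in Tead1/2 mutants, and Casq2 398 ± 48.4 and 575 ± 52.0 CPM. Cluster 2, also led by sarcomere genes (Myh4 and Mybph), had 3.48 and 12.4 CPM of Casq1. Clusters 4 and 12 had little Casq1, as cluster 33 did, at 0.807 and 0.735 CPM in cluster 4 and 0.329 and 0.974 CPM in cluster 12, but they also had less Casq2, at 25.9 and 50.4 CPM and 29.6 and 38.0 CPM. Casq1 was thus highest in the 2 clusters led by sarcomere genes and low in the cluster with the most Atp2a1. The limit for a count of 0 covers counting error only.

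Sln in cluster 33 was 34.2 CPM in Insm1 and 30.1 CPM in Tead1/2 mutants, and Srl was 544 and 573 CPM, and for both the ranges over libraries overlapped between alleles. Atp2a2 in that cluster was 329 ± 19.2 CPM in Insm1 and 436 ± 31.7 CPM in Tead1/2 mutants (SD, n = 3 libraries), and its ranges did not overlap. In cluster 32, Sln was 46.1 and 66.3 CPM, Srl 371 and 578 CPM, and Atp2a2 458 and 663 CPM, all higher in Tead1/2 mutants. Cluster 32 held 737 cells of Insm1 mutants and 2395 of Tead1/2 mutants, while cluster 12 held 1480 and 2304. Because these clusters came from the same cells, the levels are descriptions with no test.

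**Figure D4:**
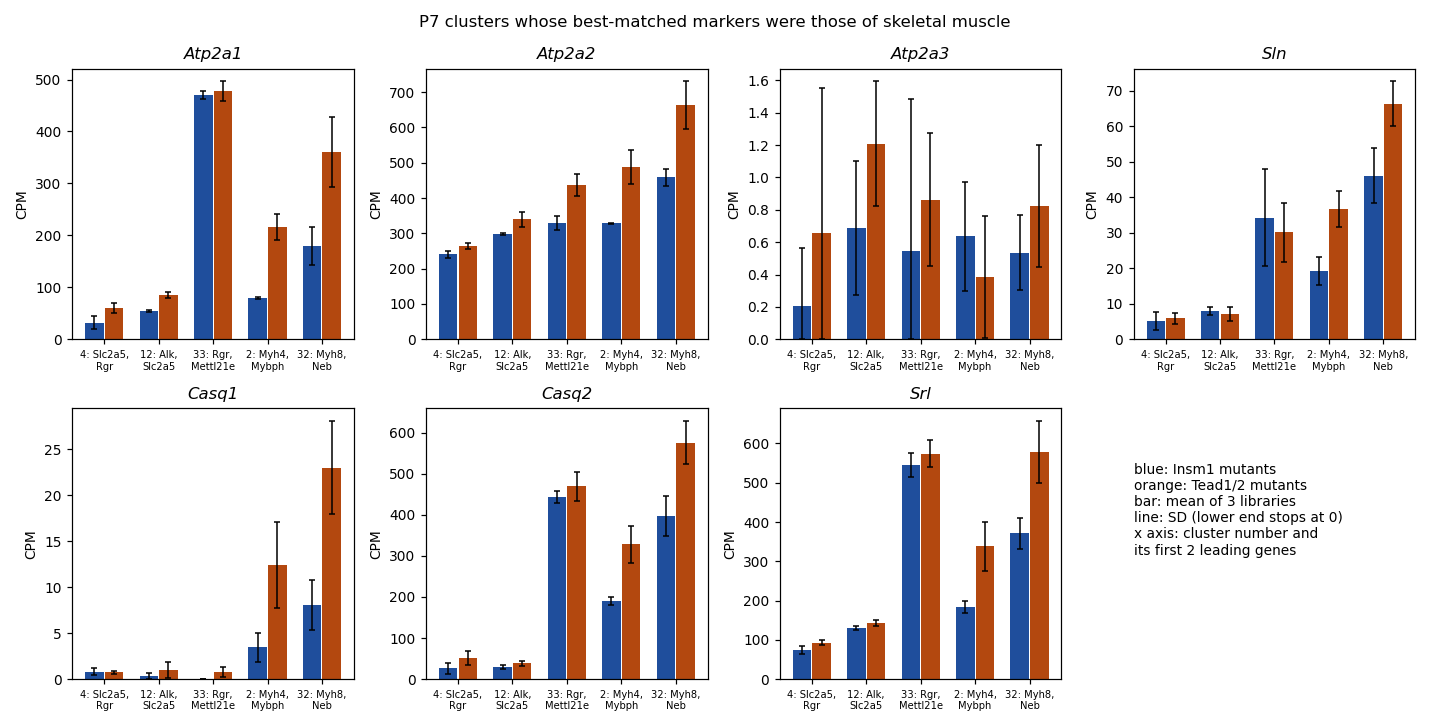
Mean CPM of each member in the 5 clusters with muscle markers, for mutants of each allele, with lines of 1 SD over 3 libraries (cut at 0). Atp2a1 is highest in cluster 33 and Casq1 in cluster 32, where Casq1 is 8.07 CPM in Insm1 and 23 CPM in Tead1/2 mutants.

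These clusters held 23.9% to 25.3% of all UMIs in the 3 Insm1 mutant libraries and 30.6% to 45.0% in the 3 Tead1/2 mutant libraries. On average over the 3 Insm1 mutant libraries they held 73.9% of Atp2a1 UMIs, 72.3% of Casq2, 71.2% of Sln, 66.5% of Srl and 64.4% of Casq1. These 5 members thus lay mostly in the clusters, far above the clusters' share of all UMIs. In Tead1/2 mutants the shares were 84.5%, 84.8%, 83.8%, 81.3% and 85.2%. For Atp2a2 the shares were 27.9% to 31.5% in the 3 Insm1 mutant libraries and a mean of 54.9% in Tead1/2 mutants, and for Atp2a3 the means were 5.73% and 19.4%. Atp2a2 was therefore above the clusters' share of all UMIs in every mutant library, and Atp2a3 below it.

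In control cerebellum Atp2a2 and Srl were found in every named class, while Atp2a3 and Casq2 were highest in a few. Atp2a2 was highest in Purkinje-like cells, at 567 ± 187 CPM (SD, n = 4 libraries), and lay between 165 and 221 CPM in the other named classes. Mean Atp2a3 was highest in mural-like cells of vessel walls, at 39.6 ± 17.3 CPM, and in Purkinje-like cells, at 28 ± 28.1 CPM. The order of these 2 CPM means cannot be told from this spread. Endothelial-like and microglia-like cells had means of 5.30 and 4.45 CPM, and the remaining named classes 0.132 to 0.588 CPM. Purkinje-like values ran from 5.46 to 69.1 CPM, in control libraries with only 32, 153, 11 and 10 such cells. Endothelial-like values ran from 3.55 to 10.2 CPM. With cells cut to equal UMIs, 0.945% of Purkinje-like, 2.10% of endothelial-like and 0.902% of microglia-like cells had an Atp2a3 UMI. Whether Purkinje-like cells stand above these other classes is therefore not settled. Casq2 was also highest in Purkinje-like cells, at 17.9 ± 9.18 CPM, and mural-like cells, at 12 ± 6.99 CPM, with 0.878 to 2.81 CPM in the other named classes. Srl lay between 7.41 and 14.6 CPM in all classes.

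**Figure D5:**
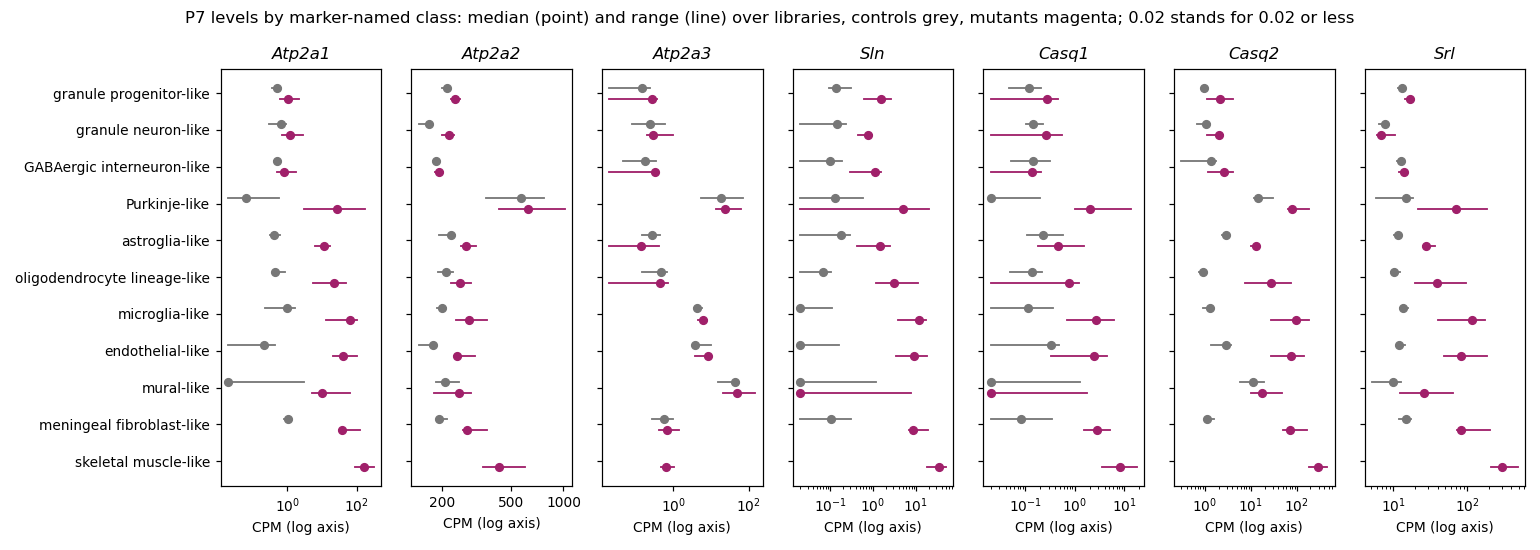
CPM of the members by cell class on log axes, with the median (point) and range (line) over libraries, controls in grey and mutants of both alleles in magenta; levels of 0.02 CPM or less are drawn at 0.02. Muscle-like cells of mutants carry the highest Atp2a1, Sln, Casq1, Casq2 and Srl levels among the named classes. Among controls, the medians of Atp2a3 are highest in mural-like and Purkinje-like cells, but the Purkinje-like range reaches down into that of endothelial-like cells.

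Classes outside muscle also held the muscle members in mutants. Microglia-like cells, which do not come from the Atoh1 lineage, averaged 28.4 ± 13.8 CPM of Atp2a1 in Insm1 mutants and 95.5 ± 6.66 CPM in Tead1/2 mutants, against 0.443 and 1.5 CPM in the controls. Meningeal fibroblast-like cells averaged 33 and 93.9 CPM and endothelial-like cells 23 and 75.6 CPM. The ratio of Casq2 to Atp2a1 UMIs was 1.93 to 2.11 in muscle-like cells of the 3 Insm1 mutant libraries and 1.64 to 2.12 in their microglia-like cells, and in Tead1/2 mutants it was 1.45 to 1.65 and 1.18 to 1.77. In astroglia-like cells the ratio was 0.870 to 1.56 and 0.904 to 1.29, and in Purkinje-like cells 2.32 to 4.58 in Insm1 mutants and 1.08 to 1.86 in the 2 Tead1/2 mutant libraries with a value. The part of free RNA or doublets in the levels of the members outside muscle was not tested.

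The granule lineage, in which Atoh1Cre acts, was summed by itself without the muscle-like cells. Of the 5 members tested there, Sln, Casq2 and Atp2a2 rose in Insm1 mutants, where 19.7% of 17568 genes were called, 11.5% higher and 8.17% lower. Sln stood at 0.162 and 0.163 CPM in controls and at 0.850, 1.47 and 1.66 CPM in mutants (2.97 on the log2 scale, SE 0.63, adjusted p = 0.00475). Casq2 stood at 1.17 and 0.914 CPM in controls and at 1.94, 3.36 and 1.59 CPM in mutants (1.17, SE 0.35, adjusted p = 0.0354). Atp2a2 stood at 201 and 187 CPM in controls and at 224, 218 and 232 CPM in mutants (0.22, SE 0.06, adjusted p = 0.0177). With no low-count filter Atp2a2 was not called (0.21, adjusted p = 0.0539). Groups did not overlap for any of the 3, but the share of all genes without overlap was not counted. Sln was not called without Insm1 control 1 (adjusted p = 0.0560). Casq2 was not called without any 1 of Insm1 controls 1 and 2, Insm1 mutant 2 or Tead1/2 controls 1 and 2 (adjusted p from 0.0503 to 0.199). Atp2a2 was not called without Insm1 control 2 (adjusted p = 0.194) or Insm1 mutant 3 (0.0509).

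In Tead1/2 mutants 4 of the 5 members tested in the granule lineage rose, where 22.4% of genes were called, 13.6% higher and 8.75% lower. Atp2a1 stood at 0.581 and 0.526 CPM in controls and at 2.03, 2.12 and 1.14 CPM in mutants (1.67, SE 0.29, adjusted p = 0.00108), and its call held whichever single library was left out. Sln stood at 0.0750 and 0.263 CPM in controls and at 0.617, 2.08 and 0.916 CPM in mutants (2.97, SE 0.60, adjusted p = 0.00333). Its log2 difference was 2.22 and not called without Tead1/2 control 1 (adjusted p = 0.0637), and it was 3.98 without Tead1/2 control 2 (adjusted p = 0.0074) and 2.32 without Tead1/2 mutant 2 (adjusted p = 0.0110). Casq2 (1.08, SE 0.35, adjusted p = 0.0426) and Atp2a2 (0.17, SE 0.06, adjusted p = 0.0483) were called narrowly. Casq2 was lost without any 1 of Insm1 controls 1 and 2, Tead1/2 controls 1 and 2 and Tead1/2 mutants 1 and 2 (adjusted p from 0.0562 to 0.185), and Atp2a2 without any 1 of the 10 libraries. Atp2a2 was called in 1 of its 17 alternatives, and was lost also with DESeq2 (adjusted p = 0.0986), RLE size factors (0.0767), no low-count filter (0.248), doublets kept (0.0586), clusters from all variable genes (0.0669) and clusters without members and muscle markers (0.0569). Of the skeletal muscle markers tested in the granule lineage, 18 of 25 rose in Insm1 and 24 of 25 in Tead1/2 mutants. Of all genes, 11.5% and 13.6% were called higher there. Srl was not called for either allele (0.23, adjusted p = 0.225, and 0.18, adjusted p = 0.331).

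These granule-lineage levels were close to those of a class outside the lineage. GABAergic interneuron-like cells of the mutants averaged 0.939 ± 0.62 and 1.15 ± 0.39 CPM of Sln (Insm1 and Tead1/2, SD, n = 3 libraries), against 0.171 and 0.0257 CPM in their controls. Casq2 in these interneurons averaged 2.16 and 3.20 CPM in mutants against 1.02 and 1.39 CPM in controls, and Atp2a1 0.716 and 1.15 CPM against 0.435 and 0.605 CPM. With every cell thinned to 2000 UMIs, 0.324% ± 0.146 of granule progenitor-like cells and 0.164% ± 0.179 of interneuron-like cells had a Sln UMI (SD, n = 6 mutant libraries), and without thinning 1.13% and 1.03%, at median depths of 5852 to 8438 and 5801 to 8590 UMIs. The spreads of the 2 classes overlapped for Sln, and the part of free RNA in the granule-lineage levels was not tested.

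The other genes of the store and of calcium handling were read from 6 lists with 52 genes in the tables. At P2, 3 of the 48 tested rose in Insm1 mutants and 0 fell: Hrc, a histidine-rich luminal protein (2.67, adjusted p = 0.00605), the plasma membrane pump Atp2b3 (0.70, adjusted p = 0.00806) and Jsrp1, a junctional protein (1.73, adjusted p = 0.0157). All 48 had a median of 0.02, beside 0.01 over all genes, of which 0.48% were called higher and 0.209% lower. In Tead1/2 mutants edgeR called 0 of 48, and without the library labelled mutant 4 it called 5 higher (Mrln, Jsrp1, Hrc, Stac3 and Atp2b3) and 1 lower (Ryr3), where 1.98% of all genes were called higher and 1.22% lower.

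At P7, 25 of the 52 rose and 6 fell in Insm1 mutants (median 0.21, beside 0.03 over all genes), where 18.2% of all genes were called higher and 15.2% lower. In Tead1/2 mutants 25 rose and 7 fell (median 0.17, beside 0.06), where 25.9% of all genes were called higher and 22.6% lower. In Insm1 mutants 8 of 10 release channel and voltage sensor genes and 8 of 11 luminal and junctional genes rose, and in Tead1/2 mutants 8 of 10 and 7 of 11. The release channels that rose included the general endoplasmic reticulum channels Itpr2 (0.42 and 0.59) and Itpr3 (0.82 and 0.75). Trdn, which anchors calsequestrin to the release channel, rose by 6.15 and 8.15, Hrc by 5.81 and 7.38, and Cacng1, a subunit of the voltage sensor, by 4.79 and 5.84. None of 10 general calcium-binding proteins of the endoplasmic reticulum rose for either allele, and 1 and 2 of them fell. The sodium-calcium exchanger Slc8a2 (-1.28 and -1.38) and Orai2, a channel of store-operated entry (-0.67 and -0.66), fell for both alleles, as did Sypl2, Fkbp1b, Atp2b2 and Rcn2. Pln, the cardiac relative of Sln, was at 0.75 CPM in Insm1 controls and 0.783 CPM in mutants.

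Likeness across the 15 P2 libraries was ranked by Pearson's r on log2 CPM over 16342 genes, for members above 1 CPM in at least 1 group, and is given as a description, since the libraries share batches and genotypes. Casq2 was most like Tpm2 (r = 0.945), Mylpf (0.941) and Fndc5 (0.931), the first a muscle tropomyosin and the second a fast myosin light chain. Srl was most like Nol3 (0.922), Rgs16 (0.910) and Unc45b (0.898), the last a myosin chaperone. Atp2a2 was most like D430041D05Rik (0.982), Ncoa1 (0.978) and Igf1r (0.977), and Atp2a3 most like Fbxo10 (0.906), Tcf3 (0.881) and Kdm2b (0.880). Atp2a1, Sln and Casq1 were under 1 CPM in every group at P2 and were not ranked.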

How the data were processed

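Only the P2 bulk RNA and P7 single-cell RNA libraries of mouse cerebellum were used; the chromatin files were not analysed here. The P2 values the authors deposited are RSEM expected counts per gene, and the submitters' processing notes name STAR 2.7.9a, RSEM 1.3.3, Trim Galore 0.6.3 and 0.4.4, Seurat 4.4.0 and the builds GRCm38.p6 and mm10 without saying which step used which. The authors deposited the P7 matrices as raw counts of UMIs per cell barcode. Which aligner and counting settings made each table is not stated in the labels or headers. The P7 library of each barcode was taken from the sample names in the deposited cell metadata.

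Expected counts were rounded to whole numbers, and 92 spike-in entries were left out. At P7 a barcode was kept as a cell if it had 1000 or more UMIs, 500 or more genes and a mitochondrial share below 15%. Scrublet's own threshold failed (it marked nearly no cells in some libraries and a large share in others), so the 4% of cells with the highest doublet scores were removed per library, which departs from the planned rule. This left 76645 of 79838 cells, 1343 of them under 2000 UMIs and so left out of thinned shares. Doublet scores rose with depth (Spearman correlation with UMIs 0.624 to 0.756 over libraries). Removed cells had medians of 15660 to 58700 UMIs per library, against 6657 to 9803 in kept cells. The kept cells of cluster 2, a muscle-like cluster, had medians of 45614 to 66017 UMIs per mutant library. Clusters came from scanpy 1.11.5 (2000 variable genes without the members, 30 components, Leiden resolution 1), 34 in all, of which 4 with 3852 cells stayed unnamed: 1 had under 3 markers, and in 3, cluster 33 among them, more leading genes were markers of another class than of the best-matched one.

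Tests were edgeR 4.0.16 quasi-likelihood fits with TMM factors and filterByExpr, on P2 libraries within each allele and on P7 UMIs summed per library, with Benjamini-Hochberg adjustment over all genes tested and a threshold of 0.05. CPM over all cells and in the granule lineage are TMM-scaled, and CPM by class or cluster are plain shares of UMIs. DESeq2 1.42.0, other scaling, no low-count filter, a replicate block (by dissection at P7), a sex covariate at P2, other cell filters and clusterings and leaving out each library were the alternatives. The test was checked on simulated counts, where it recovered 97% of genes changed 4-fold and 72% of those changed 2-fold in the P2 Insm1 design, and 88% and 60% in the P7 Insm1 design. False calls were 5 of 174 and 11 of 159 there, and 19 of 192 in the P2 Tead1/2 design. In the P7 Insm1 and P2 Tead1/2 designs their share of the calls was above the threshold of 0.05. Each simulation changed 200 genes, up or down, whereas 33.4% and 48.5% of genes were called in the real P7 data. Scaling under changes that wide was therefore not checked. No pair of replicates agreed within sampling noise. P7 animals are separate pups, as are P2 pups, and p-values measure the spread between them.

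All 7 members were named in every comparison. From the wider lists, up to 5 genes with the smallest p and those against the main direction could be named. The members and lists were chosen with earlier results of these data known.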

Additional observations from a re-analysis of the deposited data

Results flagged for a closer look

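The size of the P7 rise over all cells differed between the alleles for 4 members, by a test of the difference itself, each larger in Tead1/2 mutants: 1.66 on the log2 scale for Atp2a1, 2.02 for Casq1, 1.90 for Casq2 and 1.17 for Srl. Muscle-like cells were also a larger share of the Tead1/2 mutant libraries, and their part in these differences was not tested. The 6 libraries without lobules IX and X hold only control 2 of each allele, so no call is read from them. In them the differences were 1.33, 2.15, 1.92 and 0.99 in the same order. With all deposited barcodes, those of Atp2a1 (0.65) and Casq2 (1.06) were not called.

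Among 21 groups of 4 libraries read for a library that stands apart, 1 was found. Chance marks about 1 in 20 such groups. Srl in Insm1 mutant 3 at P2 was 18.3 CPM, below the 20.3 to 20.7 CPM of the other 3 mutants and inside the range of the controls.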

How the results depend on the processing

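Counts of members called moved as follows. In P2 Insm1 mutants (1 member called), DESeq2 and no low-count filter each gave 3, the replicate block gave 0, and leaving out single libraries gave 0 to 2. In P2 Tead1/2 mutants (0 called), no low-count filter gave 3, the replicate block 1 and leaving out single libraries 0 to 3. The difference between alleles over all P7 cells (4 called) fell to 2 with all deposited barcodes (Atp2a1 and Casq2 were lost). It reached 5 without Tead1/2 mutant 3 (Sln was gained), and its losses without single libraries are listed above. With only the libraries without lobules IX and X no call is counted, since each allele then has only control 2. In the granule lineage, the Insm1 count (3) ranged from 1 to 3 without single libraries, and the Tead1/2 count (4) from 1 to 3, and was 2 when members and muscle markers were both kept out of clustering. The all-cell P7 counts of 7 and 6 stayed between 6 and 7 over their alternatives, and the P2 difference between alleles stayed at 0.

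At P2 the replicate numbers gave no clear pairing of libraries: deviations of same-numbered libraries correlated at -0.184 to 0.33. At P7 they correlated at -0.184 to -0.00748. Deviations of 2 controls mirror each other, so pairing cannot be judged at P7. The P7 numbers also follow the dissection, and the P7 block set libraries with all lobules against those without lobules IX and X. With that block no member's call at P7 changed. With the replicate block Sln was not called in P2 Insm1 mutants (adjusted p = 0.0828) and was called in P2 Tead1/2 mutants (3.15, adjusted p = 0.0189). The difference between alleles at P2 became 0.29 for Sln and 0.035 for Srl with the block, both of the opposite sign. The library labelled Tead1/2 mutant 4 has no same-numbered control, so the block gave it a term of its own. That library thus did not inform the Tead1/2 difference or the difference between alleles in these fits.

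No reversed value belonged to a member called in that comparison. Without single libraries, Atp2a2 in P2 Insm1 mutants ranged from -0.11 to 9.6e-05, Casq1 in P2 Tead1/2 mutants from -0.15 to 0.0043, and the P2 difference between alleles from -0.053 to 0.065 for Atp2a2, from -0.39 to 0.41 for Sln and from -0.051 to 0.036 for Srl. That difference was 0.0053 for Sln and 0.033 for Srl with no low-count filter, and 0.0058 for Srl with DESeq2. The cause of these shifts was not tested. Depth limits the P2 values of Sln and Atp2a1, which rest on few counts in controls, and P7 has 2 controls per allele.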
